A study of Bos taurus with 15 samples.

Results

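Interferon tau and the trophoblast Kunitz domain proteins (TKDPs) are products of the trophoblast, the outer cell layer of the ruminant conceptus, and their transcripts were followed here in the endometrium of cows. The members were all probes, controls left out, whose name, description or accession field on the array named an interferon tau or a trophoblast Kunitz domain protein, and they were 8 of 15208 probes. They were the probes of IFN-tau-c1, TKDP1, TKDP2, TKDP3, TKDP4, TKDP5, LOC618696 (described on the array as similar to TKDP5), and IFNT2. The probe of IFNT2 carried the older names trophoblast protein-1, IFN-tau-c2 and IFN-tau-c3, and it was assigned through the synonyms of the RefSeq gene table.

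Caruncular endometrium, the tissue at the future sites of attachment, was taken from Japanese Black cows, from the uterine horn on the side of the corpus luteum, with 1 array per cow. The groups were NP15 (non-pregnant, day 15 of the estrous cycle, n = 4), P15 (pregnant, day 15, n = 3), NP18 (non-pregnant, day 18, n = 4), and P18 (pregnant, day 18, n = 4), where day 1 was the day of insemination. A cow counted as pregnant when fetal trophoblast was seen in the uterus with the naked eye. The comparisons ask how far trophoblast transcripts were found in endometrial tissue on each day of early pregnancy, with the tissue of cyclic cows as the background.

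Interferon tau is the type I interferon by which the ruminant conceptus signals its presence to the mother. It is secreted by the trophectoderm while the conceptus elongates, binds the receptor made of IFNAR1 and IFNAR2, and acts through transcription factors such as IRF9 on interferon-stimulated genes of the endometrium, and it keeps the corpus luteum from regressing. The TKDPs are secreted proteins of the ruminant trophoblast that end in a Kunitz domain, the fold of pancreatic trypsin inhibitor. In the bovine assembly ARS-UCD2.0 of RefSeq, IFNT2 lies between IFNT3 and IFN-tau-c1 on chromosome 8, and TKDP1, TKDP4 and TKDP2 follow one another on chromosome 13. LOC618696 lies before TKDP1, with LOC107133059 between them.

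The 60-base probes are shown because they set which transcripts each value can speak for. Capitals mark the longest stretch that a probe shares with another member's probe, where it reached 10 bases.
IFNT2: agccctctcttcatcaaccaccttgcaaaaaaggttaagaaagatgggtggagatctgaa
IFN-tau-c1: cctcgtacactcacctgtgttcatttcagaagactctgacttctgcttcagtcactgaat
TKDP1: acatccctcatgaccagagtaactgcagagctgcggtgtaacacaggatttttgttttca
TKDP2: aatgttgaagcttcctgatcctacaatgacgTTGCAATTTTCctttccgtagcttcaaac
TKDP3: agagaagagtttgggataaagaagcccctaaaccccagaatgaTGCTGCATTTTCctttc
TKDP4: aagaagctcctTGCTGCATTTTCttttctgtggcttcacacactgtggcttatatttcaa
TKDP5: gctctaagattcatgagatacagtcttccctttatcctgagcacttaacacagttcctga
LOC618696: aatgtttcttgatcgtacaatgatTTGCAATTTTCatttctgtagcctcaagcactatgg
The longest stretch shared by any of the 28 pairs of probes was 12 bases, between TKDP3 and TKDP4, and TKDP2 and LOC618696 shared 11 bases, as did TKDP2 and TKDP3. In their best overlap without gaps, the probes of TKDP2 and LOC618696 matched at 33 of 53 bases. Probes were compared only with one another, which does not show which transcripts they bind. Whether a TKDP probe bound transcripts of other TKDP genes was not tested. The probes of both interferon tau genes shared no marked stretch with any member. Interferon tau genes are near-identical copies, so transcripts of other copies may have bound to these probes, and the values of IFNT2 and IFN-tau-c1 are uncertain in this respect.

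Signals are given as multiples of the array's median signal over the 15208 probes. The scanner software marked a spot as well above background or not. The lowest signal so marked was 0.0196 to 0.0519 array medians on day 15 and 0.0660 to 0.180 on day 18, and a member below it had only a bound. Replicate 1 of P18 stood apart from the other 3 pregnant arrays of day 18 in these genes, so the fold changes, bounds and calls of the members that rest on P18 are given with and without it. Of the 13164 probes tested, 28 were well above background in the other 3 arrays of P18 and in no array of NP18, and 15 of them were not well above background in replicate 1. The same count was 1 probe for replicate 2, 6 for replicate 3 and 1 for replicate 4. Among the 15 were IFN-tau-c1, IFNT2, TKDP1, TKDP3 and LOC618696, and the only others with a gene name were PAG2, PAG8, PAG11 and FETUB. The arrays scanned on any one day all came from 1 group, so the day of scanning cannot be told apart from pregnancy. Fits with that day as a random block, given below, cannot separate them either. Calls kept or lost in such a fit thus do not tell them apart. In bulk tissue, fewer cells of a type and less RNA per cell cannot be told apart.

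On day 18, the interferon tau and TKDP transcripts were near or below background in cyclic cows and, for all but TKDP2, well above it in at least 3 of 4 pregnant cows. IFNT2 was at 0.0367, 10.9, 8.26 and 66.2 array medians in replicates 1 to 4 of P18, and at 0.0166, 0.0243, 0.0344 and 0.0134 in NP18. IFN-tau-c1 was at 0.0978, 19.5, 16.8 and 117 in P18 and at 0.0166, 0.0227, 0.0408 and 0.0134 in NP18. Every array of P18 lay above every array of NP18 for both genes, but replicate 1 of P18 was not well above background for either. IFN-tau-c1 was at least 95.03-fold higher in P18 than in NP18 (limma adjusted p = 0.00337), and at least 409-fold without replicate 1 of P18. IFNT2 was at least 46.7-fold higher (limma adjusted p = 0.00948), and at least 220.5-fold without that array. Such a bound compares the mean log2 signal of the brighter group with that of the dimmer group, after any dimmer array whose probe fell under that array's lowest signal well above background was raised to that signal. Arrays of the brighter group entered at their own signal, also where it was not well above background. This was so in replicate 1 of P18 for all members but TKDP4. Values given as "at least" that include such an array are thus not strict bounds.

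TKDP4 gave 0.271, 66.6, 45.0 and 307 array medians in P18 and 0.0166, 0.0193, 0.0849 and 0.0342 in NP18, and it was the only member well above background in all 4 arrays of P18. TKDP1 gave 0.0674, 32.8, 16.0 and 125 in P18 and 0.0166, 0.0193, 0.0372 and 0.0234 in NP18. In both genes the pregnant and cyclic arrays did not overlap, though replicate 1 of P18 was not well above background for TKDP1. In both, that array lay far nearer to the cyclic arrays than to the other pregnant arrays. The bound was at least 271-fold for TKDP4 (limma adjusted p = 0.00201) and at least 99.0-fold for TKDP1 (limma adjusted p = 0.00579), or at least 1181-fold and 489.5-fold without replicate 1 of P18. Without replicate 4 of P18, the brightest array, the bounds were 113-fold and 39.9-fold.

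TKDP3 gave 0.0895, 3.80, 3.80 and 40.3 array medians in P18 and 0.0166, 0.0193, 0.0182 and 0.0298 in NP18. LOC618696 gave 0.0281, 5.58, 8.05 and 51.4 in P18 and 0.0166, 0.0193, 0.0182 and 0.0134 in NP18. Both were again well above background in replicates 2 to 4 of P18 alone among the arrays of day 18. TKDP3 was at least 32.7-fold higher in P18 (limma adjusted p = 0.00572) and LOC618696 at least 34.5-fold (limma adjusted p = 0.0103), or at least 101.5-fold and 160.5-fold without replicate 1 of P18. When replicate 4 of P18 was left out in place of replicate 1, the bound was 13.2-fold for TKDP3, 13.1-fold for LOC618696, 38.6-fold for IFN-tau-c1 and 18.1-fold for IFNT2.

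TKDP2 and TKDP5 departed from this pattern. TKDP2 gave 0.0281, 0.0966, 0.713 and 28.1 array medians in P18 and 0.0166, 0.0193, 0.0182 and 0.0381 in NP18. It was well above background only in replicates 3 and 4 of P18, and it was not tested in the main fit, which took probes well above background in at least 3 arrays. TKDP5 gave 0.0357, 0.998, 0.313 and 4.97 in P18 and 0.0684, 0.0831, 0.136 and 0.0499 in NP18. Its replicate 1 of P18 was the dimmest of these 8 arrays, and the other 3 lay above all of NP18. The log2 fold change of TKDP5 was 2.62 (SE 1.44, limma adjusted p = 0.285), which did not pass the threshold. It was 3.88 without replicate 1 of P18 (limma adjusted p = 0.0991) and 1.504 without replicate 4 (0.564).

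**Figure D1:**
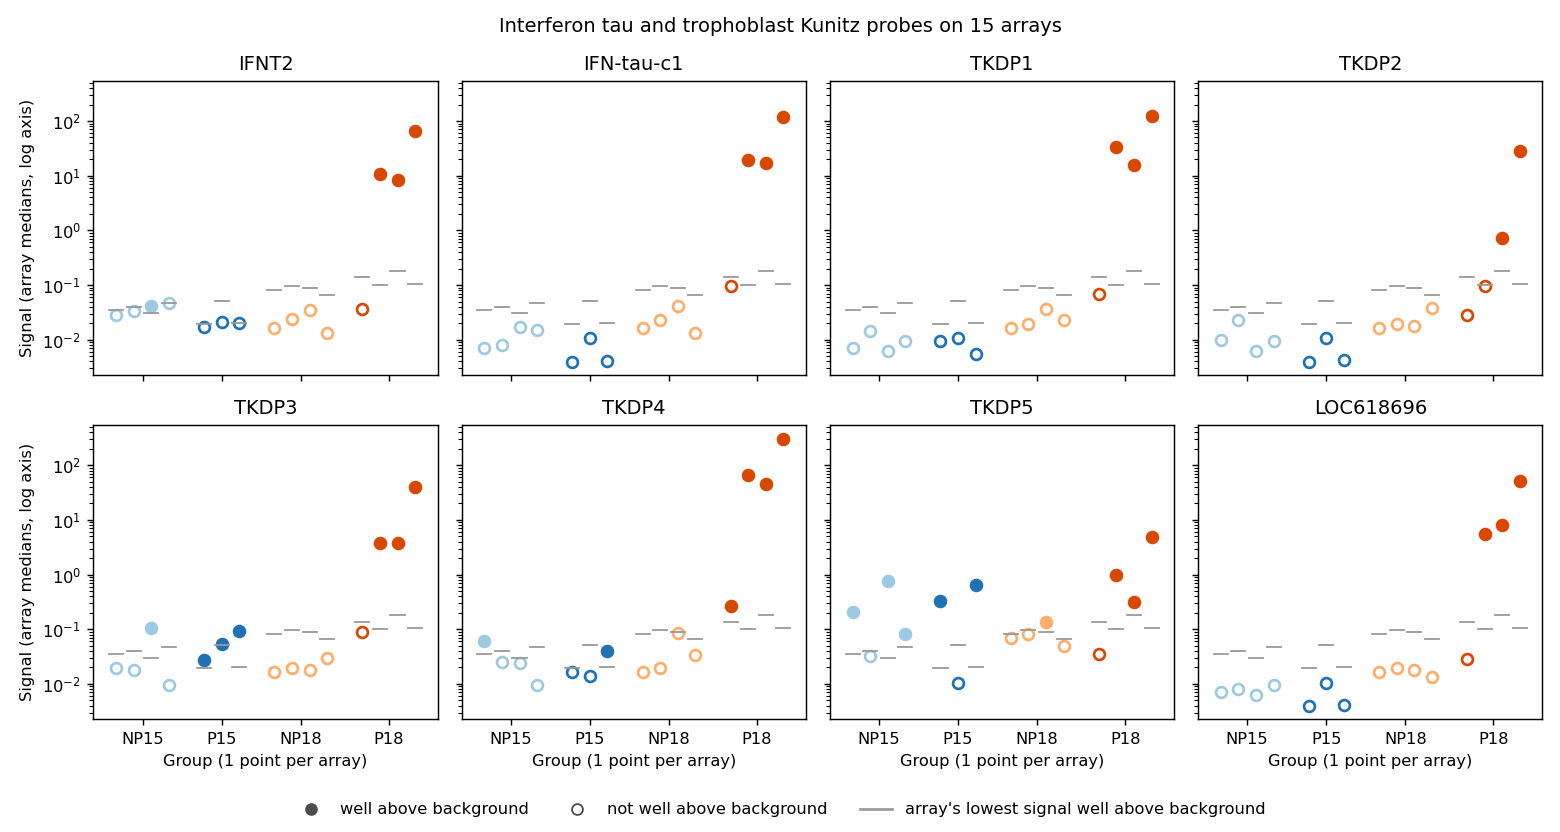
Signal of each of the 8 probes on each of the 15 arrays, in multiples of the array median on a log axis, by group. Filled points are well above background, open points are not, and grey bars give each array's lowest signal well above background. In P18, the first point (replicate 1) is open in every panel but that of TKDP4, and the last (replicate 4) is the highest, up to 307 array medians for TKDP4. TKDP5 has filled points in all 4 groups.

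Of the 8 members, limma called 6 higher in P18 than in NP18 at an adjusted p under 0.05 and a fold change over 2, against 3.65% of the 13164 probes tested. IFN-tau-c1, LOC618696 and TKDP1 were well above background in P18 only, and outside P18 IFNT2 was so in 1 array and TKDP4 in 2, so these 5 entered the test through the group where they were high. With no filter, all 8 were tested and the same 6 were called, with 5.11% of 15208 probes called in either direction, and TKDP2 had an adjusted p of 0.0845. Every array of P18 lay above every array of NP18 for the same 6 of the 8 members, against 16.7% of all probes. For each of these 6, the exact two-sided permutation test of mean log2 signals gave p = 0.0286, the smallest that 4 against 4 arrays allow, and p was 0.0571 for TKDP2 and 0.171 for TKDP5. Of the 6, only TKDP4 was well above background in replicate 1 of P18. The lowest signal so marked was 0.102 to 0.180 in P18 and 0.0660 to 0.0950 in NP18. For the others, the place of that array above NP18 thus carries no level, and their exact p rests on it. The 6 calls were kept when any 1 array was left out. When limma took the day of scanning as a random block, 0 members and 49 probes in all were called. The adjusted p of these 6 then ran from 0.26 for TKDP4 to 0.525 for LOC618696, and the unadjusted p from 0.00269 to 0.0139.

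On day 15, signals of IFN-tau-c1, TKDP1, TKDP2 and LOC618696 were not well above background in any of the 7 arrays of day 15. IFNT2 was at 0.0170, 0.0210 and 0.0198 array medians in P15, none well above background, and at 0.0285, 0.0329, 0.0414 and 0.0471 in NP15, where the third array was. The pregnant arrays thus lay below all cyclic arrays for IFNT2 (exact permutation p = 0.0571, the smallest that 3 against 4 arrays allow), on signals near background. The share of all probes without overlap between P15 and NP15 is not given here. TKDP4 was well above background in 1 of 3 arrays of P15 (0.0401) and in 1 of 4 arrays of NP15 (0.0612). None of the 7 members tested was called between P15 and NP15, where 0.798% of the probes tested were called, and 0 had an unadjusted limma p under 0.05 (lowest 0.457, for TKDP3).

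TKDP3 and TKDP5 were the members most often measured on day 15. TKDP3 was well above background in all 3 arrays of P15, at 0.0278, 0.0534 and 0.0926 array medians, and in 1 of 4 arrays of NP15, at 0.0197, 0.0181, 0.106 and 0.00966. The highest of these 7 values was from a cyclic cow, and limma gave TKDP3 an adjusted p of 0.772 at a log2 fold change of 1.07 (SE 1.40). TKDP5 was at 0.330, 0.0105 and 0.655 in P15 and at 0.210, 0.0328, 0.772 and 0.0822 in NP15. It was well above background in 2 of 3 pregnant and 3 of 4 cyclic arrays, and the groups overlapped throughout, with a log2 fold change of -0.14 (SE 1.56, limma adjusted p = 0.979). A signal of the TKDP5 probe was thus measured in tissue of cyclic cows, and replicate 3 of NP15 (0.772) was brighter than replicate 3 of P18 (0.313). The probes of TKDP3 and TKDP5 matched no symbol of the RefSeq gene table and kept their array names. Whether they bound other transcripts was not tested.

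Between the pregnant groups, 6 of the 8 members were called higher in P18 than in P15, against 7.58% of the probes tested, and TKDP2 was not tested in this fit. With no filter TKDP2 was called as well (limma adjusted p = 0.00845), where 3080 of 15208 probes were called in either direction. Its bound was at least 17.6-fold, or 45.5-fold without replicate 1 of P18 and 4.55-fold without replicate 4. IFN-tau-c1, IFNT2, TKDP1 and LOC618696 were not well above background in any array of P15. They were at least 285-fold, 140-fold, 297-fold and 104-fold higher in P18 (limma adjusted p = 0.0015, 0.00907, 0.00278 and 0.00411), or at least 1230-fold, 662-fold, 1471-fold and 482-fold without replicate 1 of P18, and 116-fold, 54.4-fold, 119.9-fold and 39.4-fold without replicate 4. TKDP4, well above background in 1 of 3 arrays of P15 and so with a difference set largely by background there, was higher by 10.06 on the log2 scale (SE 1.64, limma adjusted p = 0.00223) and TKDP3 by 5.70 (SE 1.40, limma adjusted p = 0.0156), and TKDP3 overlapped between the groups because replicate 1 of P18 lay within the range of P15. Without replicate 1 of P18 these log2 differences were 12.18 for TKDP4 and 7.34 for TKDP3, and without replicate 4 they were 8.802 and 4.401. TKDP3 lost its call when replicate 1 or 2 of P15 was left out. TKDP5 did not pass the threshold (log2 fold change of 1.88, SE 1.56, limma adjusted p = 0.425), nor without replicate 1 of P18 (3.14, limma adjusted p = 0.147). With the day of scanning as a random block limma called 0 members in this comparison, with an adjusted p of 0.132 to 0.308 and an unadjusted p of 0.00124 to 0.0242 for the 6. Every array of P18 lay above every array of P15 for 6 of the 8 members, all but TKDP3 and TKDP5, against 33.3% of all probes, and the exact permutation p for these 6 was 0.0571, the smallest that 4 against 3 arrays allow. Of these 6, only TKDP4 was well above background in replicate 1 of P18. For the others, the place of that array above P15 thus carries no level. The comparison shares the P18 arrays with that against NP18.

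Between the cyclic groups, none of the 7 members tested was called (0 also at an unadjusted limma p under 0.05), against 7.16% of the probes tested in either direction. The arrays of NP18 and NP15 did not overlap for TKDP1 and LOC618696 (exact permutation p = 0.0286 for each), but no array of either group was well above background for these genes, so the order of the values carries no level. The lowest signal marked well above background was also higher in NP18 (0.0660 to 0.0950) than in NP15 (0.0304 to 0.0475). The share of all probes that did not overlap between these groups is not given here. Between the days, the effect of pregnancy was called larger on day 18 for IFN-tau-c1 (limma interaction adjusted p = 0.033) and TKDP4 (0.0347), against 2.07% of the probes tested. For TKDP1, IFNT2, LOC618696, TKDP3 and TKDP5 the interaction adjusted p was 0.0596, 0.0584, 0.071, 0.102 and 0.511. All 6 members called on day 18 passed the interaction test without replicate 1 of P18, and 0 passed without any 1 of the P15 arrays or without NP15 replicate 2, NP18 replicate 3 or 4, or P18 replicate 2 or 3.

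The members were then compared with one another within the pregnant arrays of day 18, by the ratio of 2 arrays for the same probe, since levels of different probes cannot be set against each other. The order of the 4 arrays from dim to bright was replicate 1, 3, 2 and 4 for IFN-tau-c1, IFNT2, TKDP1, TKDP3, TKDP4 and TKDP5. For TKDP2 and LOC618696, replicates 2 and 3 changed places. Replicates 2 and 3 of TKDP3 differed by less than the scanner's error, at a log2 ratio of 0.00 (error 0.20).

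Replicate 4 exceeded replicate 3 by 6.38-fold for LOC618696, 6.81-fold for TKDP4, 6.98-fold for IFN-tau-c1, 7.79-fold for TKDP1, 8.02-fold for IFNT2 and 10.6-fold for TKDP3. For this pair of arrays the ratio was larger for TKDP5 (15.9-fold) and TKDP2 (39.4-fold). Replicate 4 over replicate 2 ran from 3.80-fold for TKDP1 to 10.6-fold for TKDP3 over the same 6 members. TKDP5 lay within that range there, at 4.98-fold, so its departure depends on the pair of cows. Replicate 3 over replicate 2 ran from 0.314 for TKDP5 and 0.487 for TKDP1 to 1.44 for LOC618696, over the 7 members well above background in both. The scanner's own error of such a log2 ratio was 0.20 to 0.26 where both spots were well above background. These ratios set single cows against each other and have no replicate check. TKDP4, the only member measured in all 4, was 1131-fold brighter in replicate 4 than in replicate 1. By bounds, replicate 4 was at least 849-fold above replicate 1 for IFN-tau-c1, 480-fold for IFNT2, 904-fold for TKDP1, 373-fold for LOC618696, 292-fold for TKDP3, 204-fold for TKDP2 and 36.0-fold for TKDP5.

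**Figure D2:**
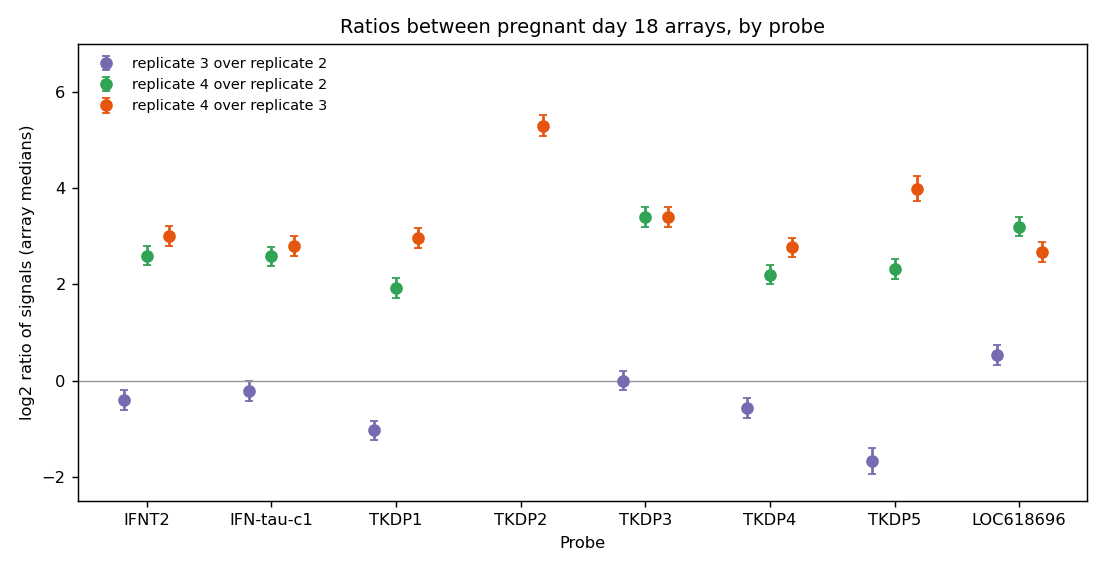
log2 ratio of the signals of 2 pregnant arrays of day 18, for each probe well above background in both, with bars for the scanner's error of the ratio (not a spread between cows). Replicate 4 lies above replicates 2 and 3 in every probe shown, from 3.80-fold to 39.4-fold, and replicate 3 over replicate 2 runs from below to above 0.

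Whether members changed unequally between P18 and NP18 was tested on the log2 ratio of 2 members on the same array, for all 28 pairs, a test chosen after the values were seen. The log2 change of TKDP5 was smaller than that of TKDP4 by 6.87, with a log2 ratio of TKDP4 to TKDP5 of 5.53 ± 1.82 (SD, n = 4) in P18 and -1.34 ± 0.85 in NP18. The exact permutation p was 0.0286, the smallest possible, for TKDP5 against each of TKDP1, TKDP3, TKDP4, IFNT2, IFN-tau-c1 and LOC618696, and 15 of the 28 pairs reached it. After Benjamini-Hochberg adjustment over the pairs 0 passed, with a lowest adjusted p of 0.0533. Without replicate 1 of P18 the difference between TKDP4 and TKDP5 was 7.73, and 21 pairs reached the smallest p of 0.0571 that 3 against 4 arrays allow. IFN-tau-c1 and TKDP1 differed by 0.05 in log2 ratio (exact permutation p = 0.914), and IFNT2 and LOC618696 by 0.13 (0.514). In NP18 most of these signals were not well above background, which limits the size of every such difference.

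Other genes known from ruminant trophoblast or the early conceptus were examined as a list of 52, of which 39 had a probe and 18 were tested. Between P18 and NP18, 4 of the 18 were called higher (PAG2, PAG7, PAG8 and PAG11) and ELF5 was called lower, and the median log2 fold change was 1.13, against 0.07 over all probes tested. Without replicate 1 of P18, 5 were called higher, now with PAG5. Taking the day of scanning as a random block left 0 of the 18 called in either direction. Pregnancy-associated glycoproteins are secreted aspartic proteinase-like proteins of the trophoblast. PAG11 was at 0.0281, 20.9, 9.55 and 53.1 array medians in replicates 1 to 4 of P18, in the same order of arrays as TKDP4, and at least 50.5-fold higher than in NP18 (limma adjusted p = 0.0117). PAG2 was at least 12.4-fold higher (limma adjusted p = 0.0149), PAG8 at least 11.0-fold (0.0159) and PAG7, well above background in 2 of 4 arrays of P18, at least 1.49-fold (0.024). The bounds of PAG11, PAG2 and PAG8 were 267-fold, 41.1-fold and 31.3-fold without replicate 1 of P18, and 21.6-fold, 5.46-fold and 4.85-fold without replicate 4, where PAG7 had none. ELF5, a transcription factor of trophoblast and of glandular epithelium, had a log2 fold change of -2.34 (SE 0.58, limma adjusted p = 0.0262).

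The summed signal of the 39 trophoblast genes was 4.48, 31.5, 14.5 and 88.1 array medians in replicates 1 to 4 of P18, and 2.74 to 5.92 in NP18, 1.90 to 3.27 in P15 and 2.48 to 3.72 in NP15. PAG11 alone gave 20.9, 9.55 and 53.1 of the sums in replicates 2 to 4 of P18, so the sums do not stand for the list as a whole. Of the 39, 5, 15, 6 and 17 were well above background in the 4 arrays of P18, 6 to 9 in NP18, 12 to 17 in P15 and 9 to 15 in NP15. Placental lactogen (CSH2), NANOG and 6 of 7 prolactin-related proteins on the array were well above background in no array. CDX2, a defining transcription factor of the trophectoderm, was well above background in all 3 arrays of P15 and in none of the other 12. Its values were 0.0327, 0.0839 and 0.0510 array medians in P15 and 0.0351, 0.0740, 0.0367 and 0.0991 in P18 (log2 fold change of 0.09, limma adjusted p = 0.923). The lowest signal so marked was 0.0196 to 0.0519 in P15 and 0.102 to 0.180 in P18. These marks and the counts above thus do not compare levels between the groups. Between P15 and NP15, limma called 0 of the 18 genes tested (3 at an unadjusted p under 0.05). Of the 18, 11 had a log2 fold change above 0, with a median of 0.33. CDX2 had 2.04 (SE 0.53, limma adjusted p = 0.093), and its values in NP15, 0.00713 to 0.0232, lay below those of P15. TFAP2A had 1.83 (SE 0.49, limma adjusted p = 0.102). The part of trophoblast tissue within the samples in the members' signals was not tested.

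Most markers of endometrial epithelium and stroma were measured in all groups, and which cells carried them was not tested. Of 12 epithelial markers on the array, 10 to 12 were well above background in every array, with a summed signal of 347 to 495 in P18 and 249 to 544 in NP18, and KRT8, KRT19 and EPCAM were among them in all 15. PAEP was so in 3 arrays, none of them of P18. CDH1 had a log2 fold change of -1.65 in P18 against NP18 (limma adjusted p = 0.161). Against P15, limma called CDH1 lower in P18 (-2.89) and EPCAM (1.45) and FOXA2 (3.03) higher. All 7 stromal markers were well above background in every array, with a sum of 661 to 827 in P18 and 698 to 1182 in NP18. DCN alone gave 360 to 425 of the stromal sums in P18. In P18 against NP18, limma called lower ESR1 among the epithelial markers and PECAM1 (log2 fold change of -1.54) and TIE1 (-1.87) among 8 endothelial markers, and it called 0 of 7 stromal and 0 of 12 leukocyte markers tested (3 and 4 of them at an unadjusted p under 0.05). ESR1 was well above background in 0 arrays of P18 and was at least 1.04-fold lower there. TIE1 was well above background in 1 of 4 arrays of P18. None of the 3 lower calls was kept with the day of scanning as a random block. The summed signal of 13 leukocyte markers was 7.05 to 12.3 in P18 and 5.46 to 8.30 in NP18.

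**Figure D3:**
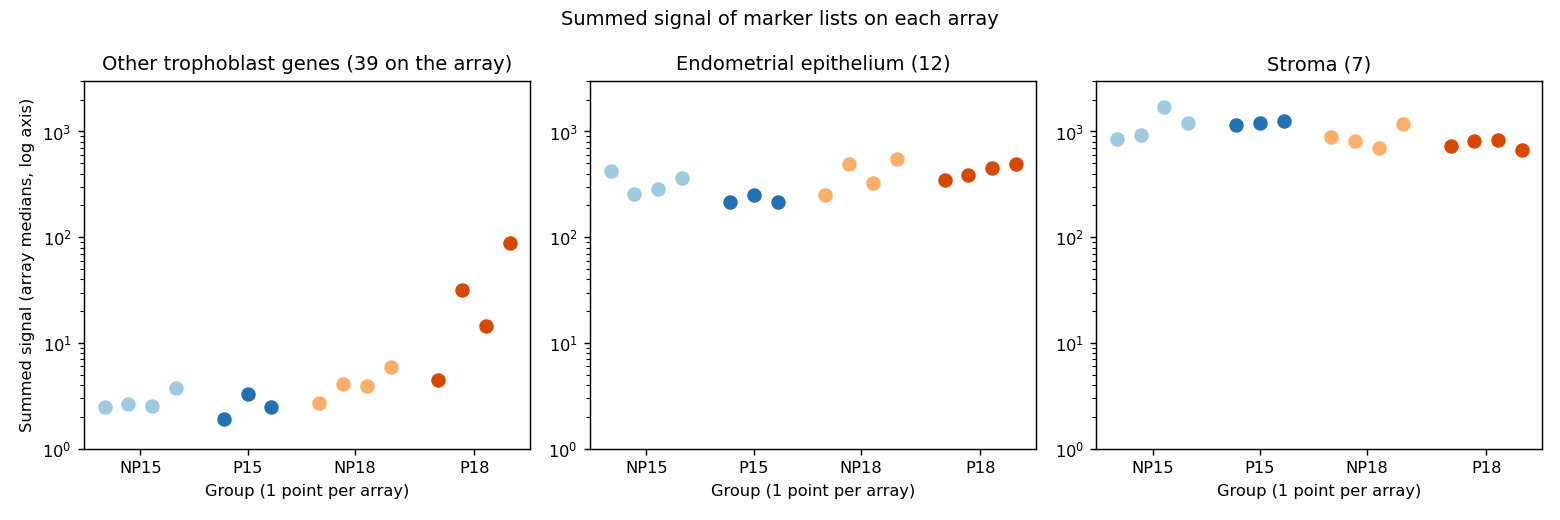
Summed signal of 3 marker lists on each array, in array medians on a log axis with the same limits, by group. The sum of other trophoblast genes is 14.5 to 88.1 in replicates 2 to 4 of P18 and 4.48 in replicate 1, which lies within the range of NP18, whereas the epithelial sums of P18 (347 to 495) lie within the range of NP18 and the stromal sums overlap it. PAG11 alone gives 9.55 to 53.1 of the trophoblast sums in replicates 2 to 4 of P18.

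Most of the interferon-stimulated genes examined were called higher in P18. Of 22 interferon-stimulated genes on the array, 21 were tested, and 19 were called higher in P18 than in NP18, with a median log2 fold change of 3.62, also 19 without replicate 1 of P18. The other 2 tested were UBA7 (log2 fold change of 1.28, limma adjusted p = 0.102) and PSMB8 (0.58, limma adjusted p = 0.209), and OAS1Z, not tested, was well above background in 1 array only. With the day of scanning as a random block, 15 of them were called. ISG15, a ubiquitin-like modifier, was at 626, 689, 834 and 416 array medians in replicates 1 to 4 of P18 and at 17.0, 14.6, 8.71 and 8.41 in NP18 (log2 fold change of 5.74, SE 0.51, limma adjusted p = 2.71e-05). MX1, an antiviral GTPase, was at 417, 427, 478 and 315 in P18 and at 31.5, 43.0, 33.0 and 23.9 in NP18. For both genes replicate 4 was the lowest and replicate 3 the highest of the pregnant arrays, and replicate 1 was close to replicate 2.

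The same held for the antiviral genes MX2 (4.37, 5.68, 7.34 and 3.35 array medians in P18), OAS2 (8.51, 13.8, 15.8 and 6.11) and RSAD2 (13.5, 13.2, 17.0 and 5.92), and for the chemokine CXCL10 (79.7, 74.4, 184 and 42.3), in that replicate 4 was the lowest and replicate 3 the highest. From the lowest to the highest array of P18, these 6 genes spanned 1.52-fold (MX1) to 4.35-fold (CXCL10), whereas TKDP4 spanned 1131-fold. Of the other interferon-stimulated genes called, OAS1X was highest in replicate 4 (22.2), and EIF2AK2 (3.39) and PARP12 (54.6) in replicate 1. The rest of those called were lowest in replicate 4 and highest in replicate 3. Between P15 and NP15, 0 of the 21 were called by limma and 8 had an unadjusted p under 0.05, with a median log2 fold change of 0.80 against -0.06 over all probes tested, and 4 arrays against 3 limit what could be called.

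Of the receptor and its signalling proteins, 8 of 12 had a probe and were tested. IRF9, a DNA-binding factor of the interferon response, was at 142, 125, 133 and 102 array medians in P18 and at 14.8, 16.5, 16.8 and 8.86 in NP18 (log2 fold change of 3.17, SE 0.29, limma adjusted p = 2.75e-05). The pregnant and cyclic arrays were far apart, and replicate 1 of P18 was the highest. The receptor chain IFNAR2 had a log2 fold change of -0.25 (SE 0.23, limma adjusted p = 0.538). IFNAR1 was not well above background in any array of P18 and in 2 of 4 arrays of NP18, and it was at least 1.04-fold lower in P18 (limma adjusted p = 0.0179). In all, 3 of the 8 were called higher and IFNAR1 lower.

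**Figure D4:**
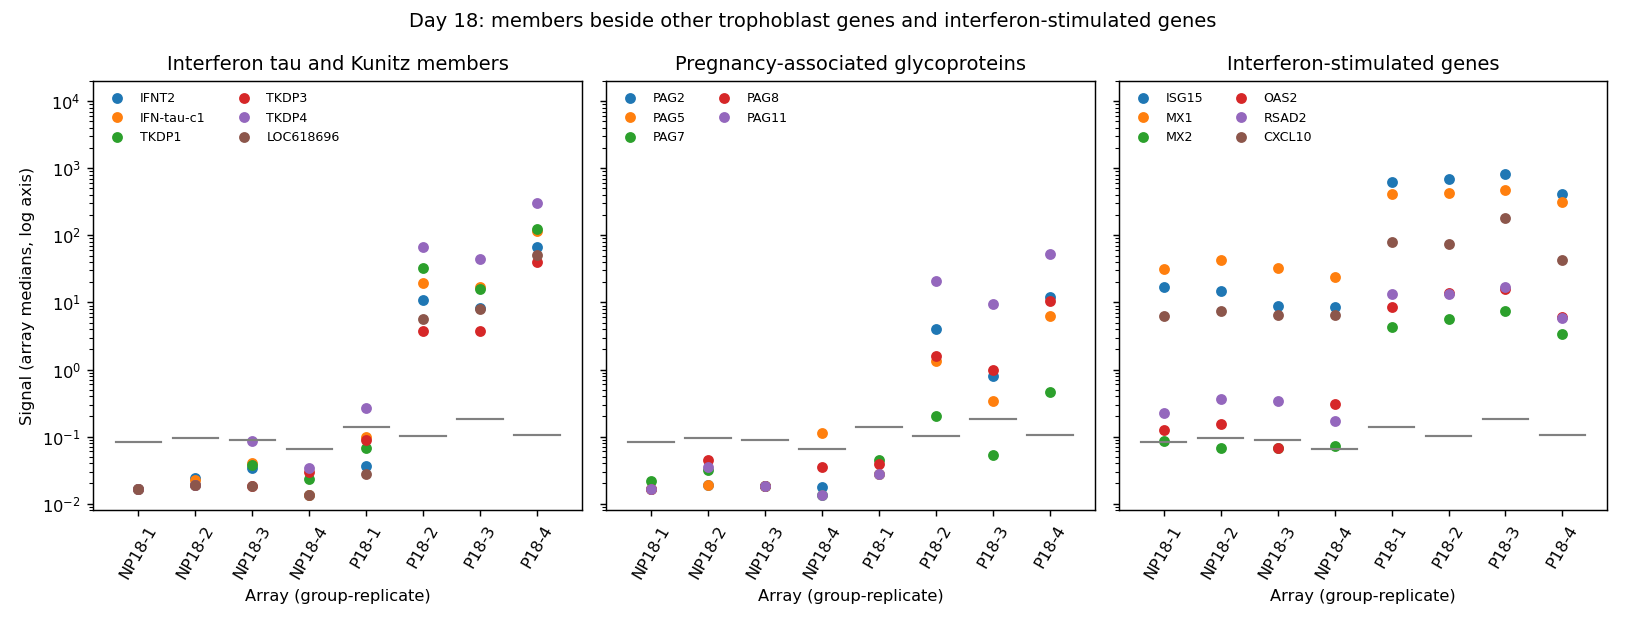
Signals of 6 members, 5 pregnancy-associated glycoproteins and 6 interferon-stimulated genes on the 8 arrays of day 18, in array medians on a log axis. Grey bars give each array's lowest signal well above background. Members and glycoproteins lie near or below the bar in P18-1 and reach 307 array medians in P18-4, while the interferon-stimulated genes lie above NP18 in all 4 arrays of P18 and are lowest in P18-4 (ISG15 at 626, 689, 834 and 416).

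Interferons and Kunitz proteins outside the trophoblast families were examined for contrast. Of 5 other interferon probes (IFNAA, IFNAC, IFNB1, IFNG and IFNW1), 4 were tested and 0 were called by limma in any of the 5 contrasts (at an unadjusted p under 0.05, 1 in P18 against NP18, 3 in P18 against P15, and 0 in P15 against NP15), and their summed signal was 0.358 to 0.571 array medians in P18 and 0.137 to 0.270 in NP18. No array had more than 3 of them well above background. Of 8 other Kunitz genes on the array, 7 were tested and 0 were called on either day of pregnancy (2 at an unadjusted limma p under 0.05 on day 18 and 1 on day 15), with a median log2 fold change of -0.30 in P18 against NP18. Their summed signal was 137 to 167 in P18 and 179 to 320 in NP18, and PTI, the pancreatic trypsin inhibitor gene on chromosome 13, had a log2 fold change of -0.73 (SE 0.31, limma adjusted p = 0.176).

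The probes with the pattern most like a member's were found by the root mean square difference of log2 signals over the 15 arrays, each probe centred on its own mean, over 13130 probes without a flagged spot. Nearest to TKDP4 outside the members were PAG11 (1.25), an expressed sequence with no gene name (1.66), PAG2 (1.87), FETUB (2.08), which encodes the protease inhibitor fetuin B, and PAG8 (2.35), and the median over all probes was 4.81. Among the members the difference from TKDP4 was 0.95 for TKDP1, 1.08 for IFN-tau-c1, 1.22 for LOC618696, 1.43 for IFNT2, 1.85 for TKDP3 and 3.78 for TKDP5. Nearest to IFNT2 were the same 5 probes, with PAG11 at 0.91, the unnamed sequence at 1.01, PAG2 at 1.07, PAG8 at 1.31 and FETUB at 1.43, and LOC618696 was the nearest member (0.94), against a median of 3.86 over all probes. Without replicate 1 of P18 the order of the 5 probes was the same for both genes. All values of a pair come from the same 15 arrays, and signals near background in the other 11 arrays enter the measure with the same weight as those of P18.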

How the data were processed

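Labeled RNA of 15 endometrial samples had been hybridized to a one-color Agilent array, 1 cow per array. The authors' software (Agilent Feature Extraction 9.5, per the labels) removed the background and deposited a processed signal per spot as an intensity on a linear scale, with a low substitute value where a spot did not exceed background, and an error per spot. The authors' deposited log2 table of these arrays served as an alternative. It was nearly the processed signal scaled by its 75th percentile, and so is not separate from that scaling. Every per-sample column had a sample. Each intensity was divided by its array's median over 15208 probes, as in the methods, and log2 was taken. Spots flagged as outliers were left out, and no member was flagged or saturated. The 13164 probes that 3 or more of the 15 arrays showed well above background entered 1 fit over all arrays with a mean for each group (limma 3.58.1, R 4.3.3). Calls needed an adjusted p (Benjamini-Hochberg) below 0.05 together with a fold change over 2. The procedure was tested on simulated data. Exact permutation tests, bounds and figures used Python 3.11.15, scipy 1.17.1 and matplotlib 3.10.9. Precision was limited by the number of arrays in each group.

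Genes were named from the files and the RefSeq table of ARS-UCD2.0 (6893 probes with a symbol), used for names and neighbors only, and the brightest probe stood for a gene. Members and gene lists were chosen with earlier results of these data known. Named were all members, the genes of the interferon pathway given in the text, up to 4 called genes of each other list with the largest day 18 change, and the 5 probes most alike to TKDP4 and IFNT2. PAG5, TFAP2A, further epithelial and stromal markers, and the listed genes at background were named after their values were seen. So were the interferon-stimulated genes not called or in another order of arrays. Alternatives were other scalings, background corrections, filters and tests, blocks, array weights, and leaving out each array. Counts of the lists without replicate 1 of P18 or with a scan day block, and pair ratios and likeness without that array, were added after the data were seen. One gene of the interferon pathway is not reported here. The PCR, staining and culture experiments were not analysed here, and the source used here has 3 arrays of P15 where the methods give 4 animals per stage.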

Additional observations from a re-analysis of the deposited data

Results flagged for a closer look

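The effect of pregnancy on IFN-tau-c1 was larger on day 18 than on day 15 by limma's interaction test (adjusted p = 0.033), and so was that on TKDP4 (adjusted p = 0.0347). IFN-tau-c1 was not well above background in any of the 11 arrays outside P18, and TKDP4 in 1 array each of NP15 and P15, so the interaction rests on the arrays of P18 against signals near background. Neither call was kept with the slide or the scan day as a random block. No signal of a member was far enough from the others of its group to be set apart by Dixon's test on the log2 scale, over 24 groups of 4 arrays, and replicate 1 of P18 reached at most a ratio of 0.727 (TKDP1).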

How the results depend on the processing

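The 6 calls of P18 against NP18 were kept under every other scaling, in the deposited log2 table, with no filter, no fold limit, normexp, array weights, the slide as a random block, the unadjusted t-test of the methods, and without any 1 array (6 to 6). The deposited table and the 75th percentile scaling are nearly the same alternative, with 728 and 727 probes called in all. In a fit of only the groups compared, 4 were called (IFNT2 at an adjusted p of 0.0648 and LOC618696 at 0.0659 were not). Blocking on scan day left 0 calls, and the methods' t-test after adjustment 0. Over all probes tested, 757 were called in either direction, 49 when blocking on scan day, 477 in a fit of only the groups compared 1344 with array weights, 1157 with the methods' t-test before and 188 after adjustment, and 428 to 1043 without single arrays. Against P15, the counts for P18 were 7 with no filter (TKDP2 was added), 0 with the scan day block, 1 with the adjusted t-test, and 5 to 6 without single arrays. The interaction count of 2 became 6 under normexp and 6 with array weights, 0 with the slide and 0 with scan day blocking, and ran from 0 to 6 without single arrays. With the replicate number as a replicate block the interaction count was 1, and the other counts did not change. The numbers did not pair the arrays, since same-numbered arrays correlated by -0.13 to 0.04 on day 18 and -0.03 to 0.30 on day 15 in their deviations from the group means, and only 2 of the 7 pairs exceeded 0.1. NP18 against NP15 gave 2 calls (LOC618696 and TKDP1) with the unadjusted t-test, on signals below background. The log2 fold change of TKDP3 between P15 and NP15 turned to -0.19 under normexp. That of TKDP5 turned to 1.70 with array weights and to 0.073 with the replicate block, and ran from -1.29 to 1.68 without single arrays. The cause was not tested. No member was well above background in all 15 arrays, so that filter left none, and the t-test and the fit of the groups compared give no interaction. Weak signals were limited by background, which lay higher on day 18.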
